A study of Mus musculus with 4 samples.

Results

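Described here are 10 genes of the NRF2 and glutathione antioxidant system in mouse small-intestinal crypts, the pits of the gut lining that hold its stem cells. They are Nfe2l2, Keap1, Nqo1, Gclc, Gclm, Gsr, Txnrd1, Srxn1, Gpx2 and Gpx1, chosen by name, and all 10 were found by symbol in both deposited tables, among 27425 genes listed in either. Tetracycline was used to deplete what is written AKK in the labels, and the study's question was what this does to gene expression in the fed and the fasted state.

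RNA was taken from male C57BL/6J mice aged 9 weeks, and the labels name no transgene or deletion. The 4 groups were fed mice without tetracycline, mice fasted for 24 hours without it, fed mice after 21 days of tetracycline, and mice fasted for 24 hours after 21 days of tetracycline. The labels give 1 sample per group and do not say how many animals it holds. The tissue was shaken in a buffer with EDTA to free the crypts, trypsin then gave single cells, and the library kit does not keep the strand. The authors deposited 2 tables, 1 for the fasting comparison without and 1 with tetracycline. Whole counts worked out from the deposited means show 4 libraries behind each table, 2 fasted and 2 fed. These libraries cannot be tied to animals or to the labelled samples, so the p-values rest only on spread between libraries, which may be technical. That spread is not taken from a gene's own libraries alone, since DESeq2 draws partly on the other genes. The libraries are named fasted library 1 and 2 and fed library 1 and 2, library 1 being the one with the larger size factor, the number its counts are divided by.

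Which side of a fold change is which had to be read from the tables' names, which put fasting before feeding; positive values were taken to mean more RNA after fasting. Each direction below depends on that reading. In a full fit of the members' counts, the deposited fold changes were matched to within 1.24e-08 on the log2 scale with the side read as fasted as the reference level, the group a fit measures the others against. With the other side as reference the smallest gap was 7.3e-07. In R, where DESeq2 runs, the reference is by default the first name in the alphabet, and fast comes before fed.

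NRF2, the product of Nfe2l2, is a transcription factor that switches on genes of detoxification and of glutathione and thioredoxin metabolism. KEAP1 binds NRF2 in the cytoplasm and hands it to a ubiquitin ligase built on CUL3, so that NRF2 is degraded. Oxidants and electrophiles modify cysteines of KEAP1, NRF2 then accumulates, enters the nucleus, pairs with a small MAF protein and binds antioxidant response elements. Since that control acts on the protein, the RNA of Nfe2l2 and Keap1 does not measure NRF2 activity. In the gut lining, this system meets electrophiles from food, bile and microbes.

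The core of the antioxidant response element, TGACNNNGC, was searched on both strands in RefSeq promoter windows (GRCm38.p6) from 250 bases before to 50 bases after each start site. Windows were at hand for 8 of the 10 genes, 10 windows in all, and 4 held the core, against 12.4% of all 32851 windows. No window of Gclc or Gsr was used here. The sites are shown because they are the letters through which NRF2 is known to act, each 5′ to 3′ with the core in capitals and 10 bases on either side, read on the minus strand of the genome.
Nfe2l2, chr2:75704885-75704913: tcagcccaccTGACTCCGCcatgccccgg
Gclm, chr3:122245413-122245441: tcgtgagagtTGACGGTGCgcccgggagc
Txnrd1, chr10:82859104-82859132: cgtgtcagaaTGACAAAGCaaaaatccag
Srxn1, chr2:152105542-152105570: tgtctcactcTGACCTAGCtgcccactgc
Along the gene, the core began 240 bases before the start site in Nfe2l2, 134 before it in Gclm and 92 before it in 1 of 3 windows of Txnrd1, and 28 after it in Srxn1. Its first 4 letters are shared with the AP-1 element, TGACTCA, which none of the 4 sites spells. A match is a description of letters and not a measured binding site. The windows of Nqo1, Keap1, Gpx1 and Gpx2 do not hold these letters.

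**Figure D1:**
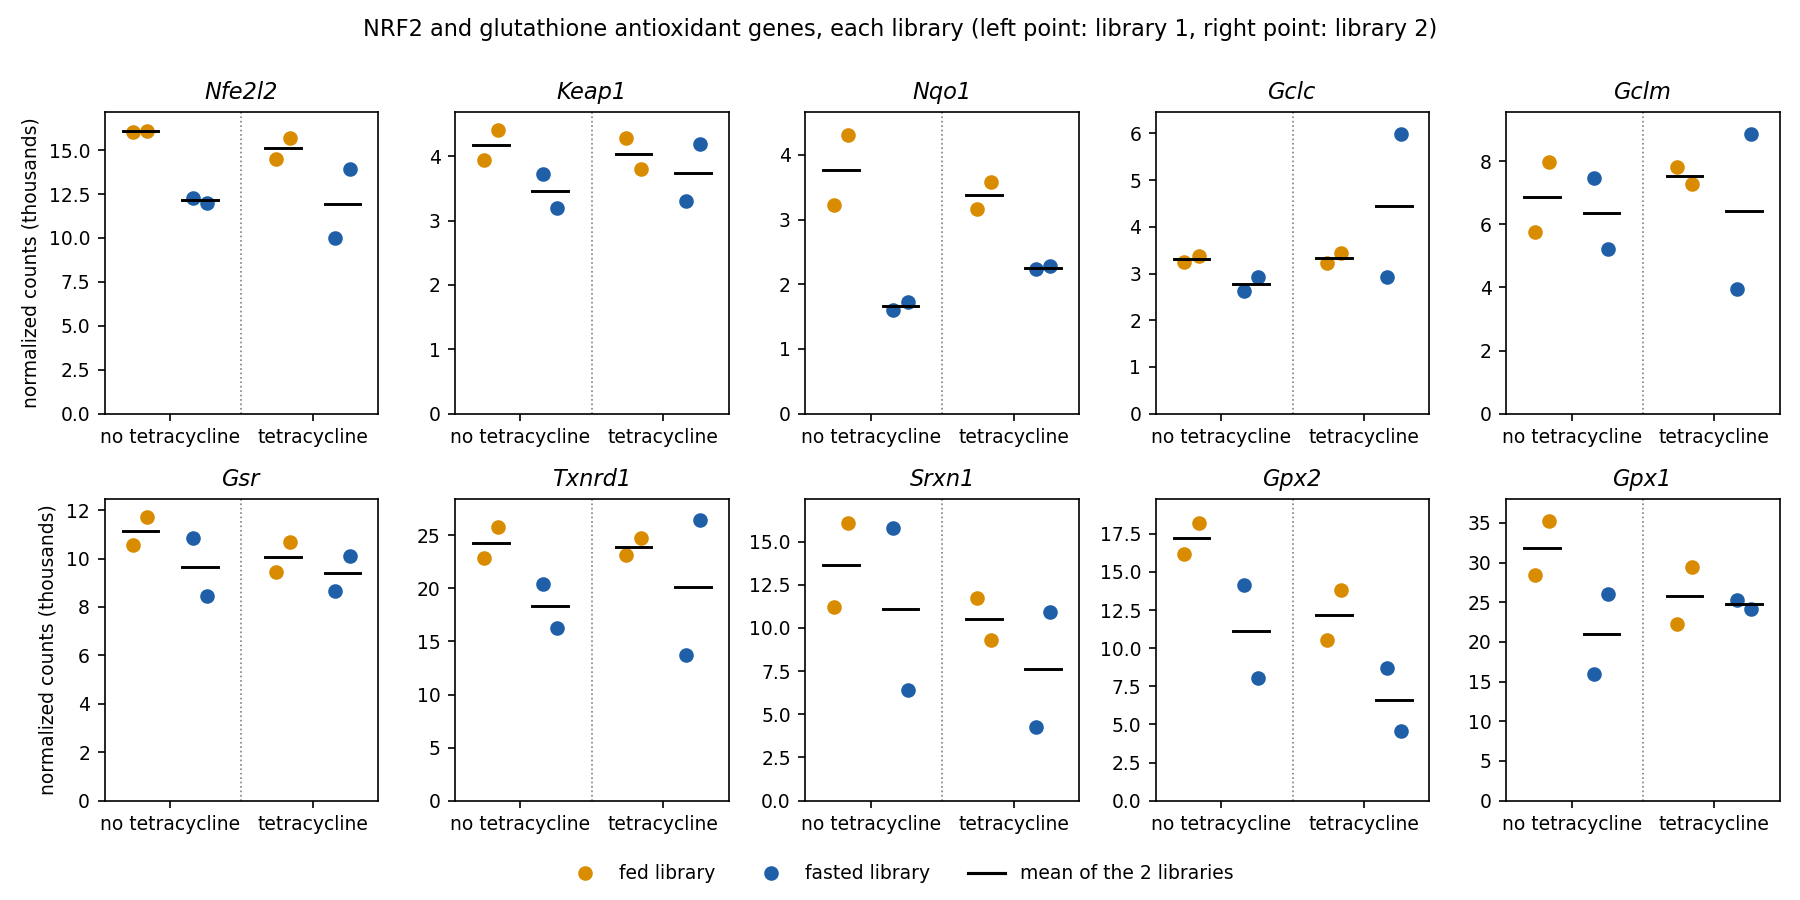
Normalized counts (in units of 1000, vertical axes from 0) of the 10 genes in each of the 8 libraries, fed in orange and fasted in blue, with bars at the mean of the 2 libraries of a side. Without tetracycline the fasted points of Nqo1 lie at 1601 and 1728 against 3230 and 4312 fed, and with tetracycline the fasted points of Gclc, Gclm, Txnrd1 and Srxn1 lie far apart.

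Nqo1 RNA was lower after fasting without tetracycline, and Nqo1 was the only one of the 10 genes to pass the test in either table. Without tetracycline all 10 values were below 0, where 53% of the tested genes that reached a mean of 1000 were. With tetracycline 9 were below 0, where 48.8% of such genes were, and Gclc was above it. Called means an adjusted p under 0.05 in the authors' deposited table, a DESeq2 Wald test with Benjamini-Hochberg adjustment over all genes tested. In the table without tetracycline 1 of 10 was called lower, where 1.22% of all tested genes were called lower, and 0 of 10 were called higher by DESeq2, where 1.06% were. Over both directions 2.27% of all tested genes and 2.06% of those that reached a mean of 1000 were called there. In the table with tetracycline 0 of 10 were called by DESeq2 in either direction, where 0.6% of all tested genes were. At an unadjusted p under 0.05 the count was 2 of 10 without tetracycline, where 10.8% of all genes passed, and 0 of 10 with it, where 5.34% did. The adjusted p of the genes not called ran from 0.452 to 0.965 without and was at least 0.990 with tetracycline in the authors' deposited tables. The median log2 change of the 10 genes in the authors' deposited tables was -0.35 without the drug and -0.24 with it, the latter turning to 0.03 without fasted library 1 and to -0.54 without fasted library 2. For tested genes with a mean of at least 1000, which every one of the 10 reached, it was -0.02 and 0.01.

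Both fasted libraries lay below both fed libraries for 7 of the 10 genes without tetracycline, where 24.6% of genes with a mean of at least 1000 did. Both lay above for 0 of the 10, where 17.5% did, and the sides overlapped for Gclm, Gsr and Srxn1. With tetracycline the pattern held for 3, namely Nfe2l2, Nqo1 and Gpx2, where 14.6% of such genes did. The deposited means of the 10 genes ran from 2718 to 26405 normalized counts without and from 2814 to 25276 with tetracycline. In bulk RNA, fewer cells of one type and less RNA per cell cannot be told apart.

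Of the regulators, Nfe2l2 (ENSMUSG00000015839.7, chr2:75675513-75704641, GRCm38, as are all gene positions below) stood without tetracycline at 12300 and 12011 normalized counts in fasted libraries 1 and 2 and at 16051 and 16077 in fed libraries 1 and 2. Libraries of a side lay within 1.02-fold of each other and the sides did not overlap. The change in the authors' deposited table was -0.40 (SE 0.24, adjusted p = 0.591), so it was not called. With tetracycline Nfe2l2 stood at 10010 and 13905 fasted and at 14514 and 15698 fed, again with no overlap. The authors' deposited table gave -0.34 (SE 0.39, adjusted p = 0.9999) there, close to the value without tetracycline but with a wider error. It ran from -0.59 without fasted library 2 to -0.12 without fasted library 1.

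Keap1 (ENSMUSG00000003308.16, chr9:21229730-21239361), the inhibitor, stood at 3729 and 3192 normalized counts fasted and at 3938 and 4409 fed without tetracycline. The fasted libraries lay below the fed ones, and the authors' deposited table gave a change of -0.27 (SE 0.26, adjusted p = 0.827). With tetracycline it stood at 3300 and 4185 fasted and 4288 and 3794 fed, where the sides overlapped, with a change of -0.11 (SE 0.38) in the authors' deposited table. Exons of Keap1 overlap the antisense gene Gm16754, whose deposited means were 27.1 and 33.8, and without strand the reads of the overlap cannot be told apart.

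Nqo1 (ENSMUSG00000003849.9, chr8:107388225-107403206) encodes a quinone reductase that moves electrons in pairs from NADH or NADPH to quinones, and it is often used to read NRF2 activity. Without tetracycline it stood at 1601 and 1728 normalized counts in fasted libraries 1 and 2 and at 3230 and 4312 in fed libraries 1 and 2. Both fasted libraries were low and close together, and both fed libraries were high. Nqo1 fell by 1.18 on the log2 scale in the authors' deposited table (SE 0.27, DESeq2 adjusted p = 0.00188), which leaves 0.441 of the fed level. Leaving out any of the 4 libraries kept the value between -1.37 and -0.96.

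With tetracycline Nqo1 stood at 2231 and 2276 normalized counts fasted and at 3165 and 3584 fed. The sides did not overlap here either, and the fasted libraries lay within 1.02-fold of each other. The authors' deposited table gave a change of -0.58 (SE 0.36, unadjusted p = 0.104, adjusted p = 0.9999), which was not called. It stayed between -0.67 and -0.49 with any 1 library left out. Nqo1, Nfe2l2 and Gpx2 were the genes of the 10 whose fasted libraries lay below the fed ones in both tables.

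Nqo1 is also a known target of the aryl hydrocarbon receptor, which senses dietary and microbial ligands, so genes of that receptor were read beside it; they were chosen with earlier results of these data known. Cyp1a1, its most responsive target, stood at 3.67 and 0 normalized counts fasted and at 1657 and 2612 fed without tetracycline. Under the drug it stood at 0.823 and 1.38 fasted and 665 and 877 fed, and it was called in each table as the authors deposited it (adjusted p = 7.2e-33 and 1.36e-13). Ahrr, the repressor of the receptor, had changes of -1.34 (adjusted p = 0.138) and -1.92 (adjusted p = 0.925) in the authors' deposited tables, first without and then with the drug. Cyp1a2 stood at 0 and 0 normalized counts fasted and at 6.95 and 13.1 fed without tetracycline. Under the drug it stood at 0 and 1.38 fasted and at 16.5 and 34.5 fed. Its changes in the authors' deposited tables were -5.77, with no adjusted p, and -5.54 (DESeq2 adjusted p = 0.190), both at few counts. Tiparp, another target, had -0.39 and -0.24, and Ahr itself -0.29 and -0.54, none of them called in the authors' deposited tables. Their part in the change of Nqo1 was not tested.

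Glutathione is made in 2 steps, of which glutamate cysteine ligase does the first and limiting one; Gclc encodes its catalytic and Gclm its modifier subunit. Gclc (ENSMUSG00000032350.10, chr9:77754535-77794485) stood at 2618 and 2921 normalized counts fasted and at 3255 and 3384 fed without tetracycline. The fasted libraries lay just below the fed ones, and the authors' deposited table gave -0.26 (SE 0.25, adjusted p = 0.829). Its values with tetracycline were 2920 and 5993 fasted and 3233 and 3432 fed. Fasted library 2 was thus the highest of the 4 and fasted library 1 the lowest. The change of 0.42 (SE 0.48) in the authors' deposited table, the only one of the 20 member values above 0, became -0.19 with fasted library 2 left out.

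Gclm (ENSMUSG00000028124.16, chr3:122245557-122270732) overlapped between sides in both tables. It stood at 7468 and 5229 normalized counts fasted and at 5744 and 7981 fed without tetracycline, and the authors' deposited table gave -0.11 (SE 0.30). Under tetracycline it stood at 3963 and 8868 fasted and 7797 and 7268 fed, and the authors' deposited table gave -0.23 (SE 0.50). Fasted library 2 was again the highest and fasted library 1 the lowest, and leaving out fasted library 2 moved the value to -0.93. Exons of Gclm overlap Gm17494, read from the other strand, and the pseudogene Gm6061. Their deposited means were at most 319 and 12.3 normalized counts, and how reads were shared with them is uncertain.

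The recycling enzymes return oxidized glutathione, thioredoxin and peroxiredoxin to their active forms with electrons from NADPH or thiols. Gsr (ENSMUSG00000031584.17, chr8:33652523-33698163), glutathione reductase, stood at 10853 and 8459 normalized counts fasted and at 10548 and 11721 fed without tetracycline, and at 8666 and 10098 fasted and 9438 and 10674 fed with it. The sides overlapped in both tables, with changes of -0.21 (SE 0.26) and -0.10 (SE 0.36) in the authors' deposited tables. With 1 library left out the value ran from -0.40 to -0.04 without and from -0.21 to 0.01 with tetracycline.

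Txnrd1 (ENSMUSG00000020250.12, chr10:82833951-82897712), the cytosolic thioredoxin reductase and a selenoprotein, stood without tetracycline at 20375 and 16287 normalized counts fasted and 22833 and 25757 fed. The fasted libraries lay below the fed ones, and the authors' deposited table gave -0.41 (SE 0.26, adjusted p = 0.640). The values with tetracycline were 13709 and 26480 fasted and 23162 and 24708 fed, so that the fasted libraries lay on either side of the fed ones. The authors' deposited table gave -0.25 (SE 0.46), which became -0.80 with fasted library 2 left out.

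Srxn1 (ENSMUSG00000032802.9, chr2:152105516-152111376) encodes sulfiredoxin, which repairs overoxidized peroxiredoxins, and it differed most of the 10 between the 2 fasted libraries in both tables. Without tetracycline it stood at 15788 and 6415 normalized counts fasted and at 11239 and 16075 fed, and fasted library 1 was close to the higher fed library. Under the drug it stood at 4280 and 10918 fasted and at 11737 and 9324 fed, and here fasted library 1 was the low one. The changes in the authors' deposited tables were -0.30 (SE 0.40) and -0.47 (SE 0.54), the widest errors of the 10 genes in each table. With 1 library left out the value ran from -1.09 to 0.21 without and from -1.30 to 0.05 with tetracycline, the negative ends being reached without fasted library 1 in the first table and without fasted library 2 in the second.

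Both glutathione peroxidases are selenoproteins that reduce hydrogen peroxide with glutathione. Gpx2 (ENSMUSG00000042808.11, chr12:76792333-76795554), the form of the gut epithelium and most abundant at the crypt base, had log2 changes below 0 in both tables. It stood at 14167 and 8027 normalized counts fasted and at 16204 and 18190 fed without tetracycline. Its values with tetracycline were 8708 and 4542 fasted and 10543 and 13815 fed. Every fasted library lay below every fed library of its table, and the 2 fasted libraries differed 1.76-fold and 1.92-fold. The authors' deposited tables gave -0.63 (SE 0.32, unadjusted p = 0.0475, adjusted p = 0.452) and -0.88 (SE 0.47, unadjusted p = 0.0639, adjusted p = 0.990), neither of them called. Leaving out fasted library 2 without tetracycline moved the first to -0.28, and leaving out fasted library 1 there moved it to -1.10. With tetracycline the value became -0.48 without fasted library 2, where Srxn1 at -1.30, Gclm at -0.93, Txnrd1 at -0.80, Nqo1 at -0.60 and Nfe2l2 at -0.59 lay lower, and -1.42 without fasted library 1.

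Gpx1 (ENSMUSG00000063856.9, chr9:108338903-108340343), the form found in nearly all cells, stood at 15907 and 26046 normalized counts fasted and at 28379 and 35289 fed without tetracycline. The fasted libraries lay below the fed ones, and the authors' deposited table gave -0.60 (SE 0.31, unadjusted p = 0.0525, adjusted p = 0.471). The value ran from -1.0 without fasted library 2 to -0.29 without fasted library 1. With tetracycline Gpx1 stood at 25298 and 24159 fasted and at 22242 and 29404 fed, with overlap and a change of -0.06 (SE 0.38) in the authors' deposited table.

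**Figure D2:**
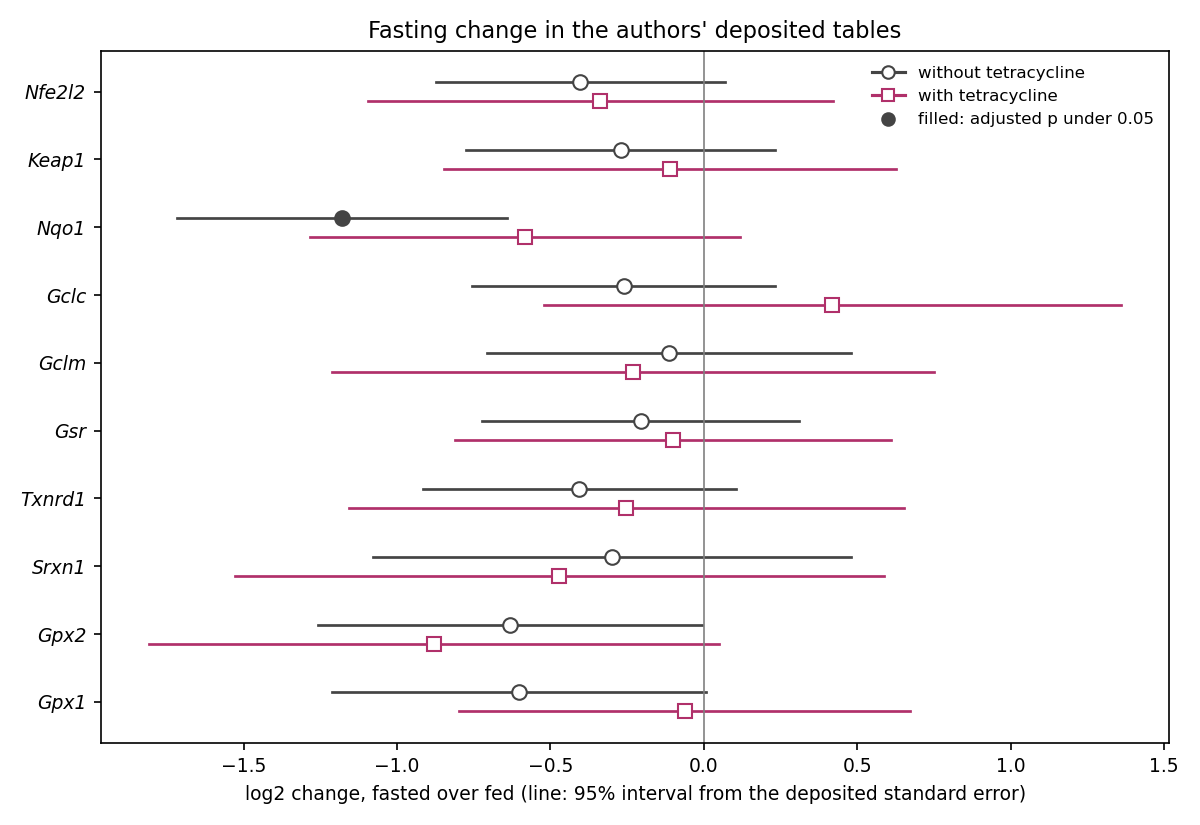
Fasting change of each gene (log2, fasted over fed, horizontal axis) in the authors' deposited tables without (grey circles) and with (magenta squares) tetracycline, with 95% intervals from the deposited standard errors. The interval of Nqo1 without tetracycline, -1.72 to -0.64, lies clear of 0 and is the only filled point, and in both tables most values lie below 0. The interval of Gpx2 without tetracycline, -1.257 to -0.007, only just excludes 0, and Gpx2 was not called.

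By their median, though not in each gene, the members differed more between the 2 fasted libraries of a table than between the 2 fed ones. The median absolute log2 ratio over the 10 genes was 0.34 between the fasted and 0.17 between the fed libraries without tetracycline, and 0.71 and 0.18 with it. Nqo1 in both tables and Gpx1 with tetracycline instead differed more between the fed libraries. The genes did not all differ the same way. With tetracycline, fasted library 2 over fasted library 1 was 2.55 for Srxn1, 2.24 for Gclm, 2.05 for Gclc and 1.93 for Txnrd1. It was 1.39 for Nfe2l2, 1.27 for Keap1, 1.17 for Gsr, 1.02 for Nqo1, 0.955 for Gpx1 and 0.522 for Gpx2. Gpx2 thus went opposite to the glutathione synthesis genes, and Nqo1 did not differ by more than 1.02-fold. Markers of several cell types, though not of all, moved between the same libraries. Sis and Lct, the 2 of 8 enterocyte markers whose counts could be worked out in both tables, summed to 54629 normalized counts in fasted library 1 and 308206 in fasted library 2. From fasted library 1 to fasted library 2, 3 of 5 Paneth cell markers, taken for the same reason, went from 120856 to 22887, 5 stem cell markers from 90564 to 23269, 6 lymphocyte markers from 15331 to 2631 and 5 erythrocyte markers from 72836 to 11667. Other sums differed little: 4 of 5 goblet markers went from 138778 to 157707 and 5 enteroendocrine markers from 33625 to 32681. The 4 tuft cell markers went from 5863 to 4789.

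Without tetracycline the order of the fasted libraries was the other way for the enterocyte markers, at 355008 in fasted library 1 and 122264 in fasted library 2, while the Paneth cell markers stood at 63443 and 78325. A pair of further enterocyte markers could be worked out in this table only: Alpi stood at 80715 and 54561 and Vil1 at 173985 and 80262 in fasted libraries 1 and 2, the same order with a smaller gap. Fasted library 2 over fasted library 1 was 0.406 for Srxn1, 0.567 for Gpx2, 0.700 for Gclm, 0.779 for Gsr and 0.799 for Txnrd1 there. It was 0.856 for Keap1, 0.977 for Nfe2l2, 1.08 for Nqo1, 1.12 for Gclc and 1.64 for Gpx1. Srxn1, Gclm, Txnrd1, Gsr, Keap1 and Nfe2l2 were thus higher in the fasted library with the higher enterocyte sum in both tables, Nfe2l2 by little without tetracycline. Gclc and Nqo1 were lower in it without and higher in it with tetracycline, Gpx2 was higher in it without and lower in it with tetracycline, and Gpx1 was lower in it in both tables. The part of cell type makeup in the members' values was not tested.

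**Figure D3:**
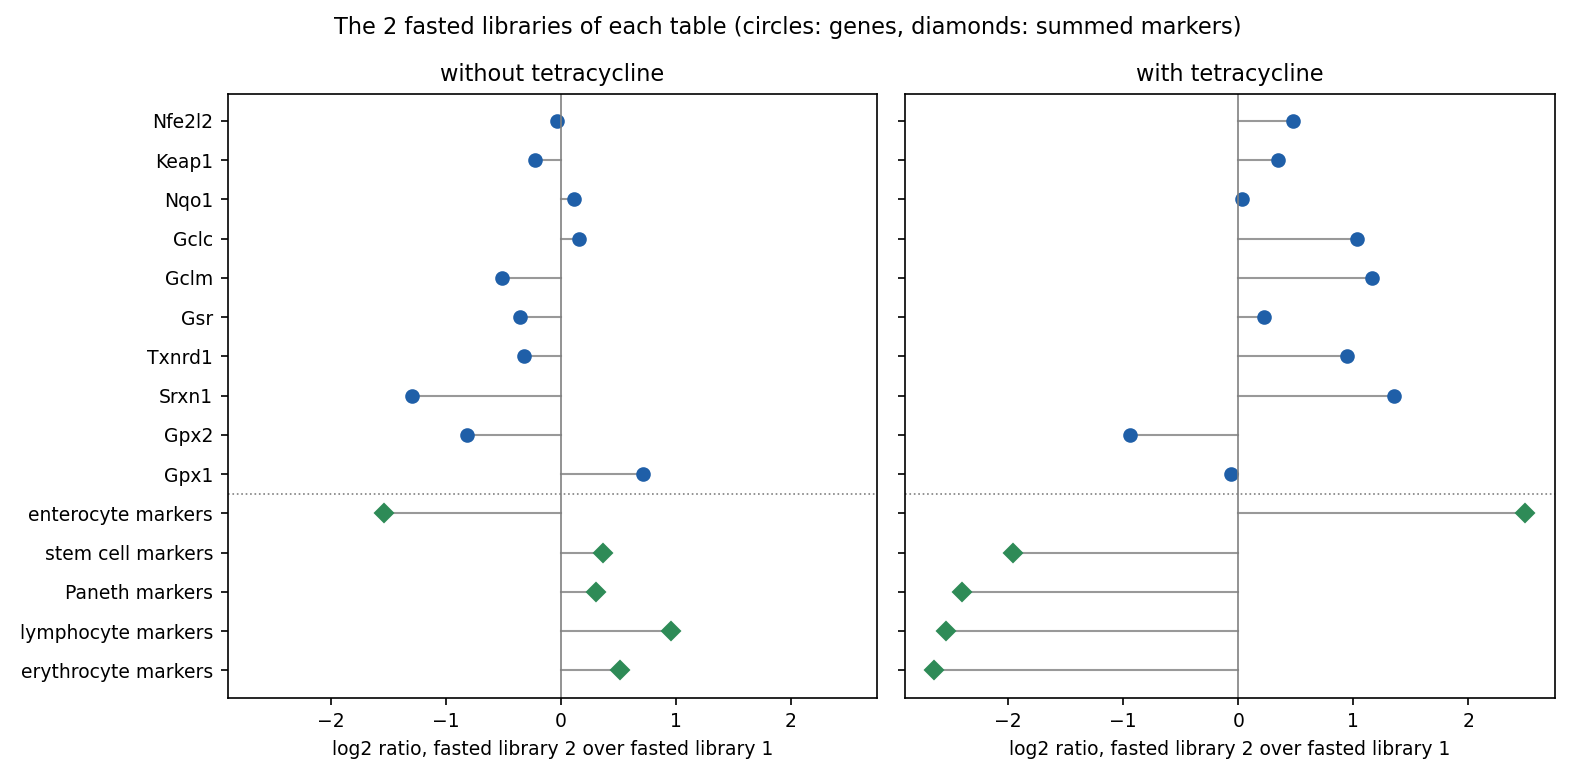
Log2 ratio of fasted library 2 over fasted library 1 (horizontal axis) for the 10 genes (blue circles) and for summed cell type markers (green diamonds), without and with tetracycline. With tetracycline the enterocyte sum is higher in fasted library 2 by 2.50 and Srxn1 by 1.35 on the log2 scale, while the Paneth, stem cell, lymphocyte and erythrocyte sums and Gpx2 are lower. Sums of the other cell types, some of which differed little, are not drawn.

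Between the fed libraries without tetracycline all 10 genes were higher in library 2, from 16077 against 16051 normalized counts for Nfe2l2 to a 1.43-fold difference for Srxn1. The erythrocyte sum there was 87011 in fed library 1 and 293131 in fed library 2, and the stromal sum was 430 and 1609. Epithelial sums differed too, in the same order of libraries: enterocyte 129035 and 173397, stem cell 101457 and 65350. The Paneth cell sum was 35857 and 26578 and the cycling sum 43567 and 27634. The goblet, enteroendocrine and tuft cell sums differed less. With tetracycline 7 of the 10 were higher in fed library 2, and the ratio ran from 0.794 for Srxn1 to 1.32 for Gpx1. The share of all genes higher in fed library 2 was not counted for either table, so these counts have no background.

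Markers of other cell types also moved with fasting itself. Stem cell and Paneth cell markers, which mark the crypt, were all present, as were the enterocyte markers, of which Sis, Lct and Alpi are known as markers of the mature cells of the villus, all with deposited means of at least 617 normalized counts. Of the enterocyte markers 6 of 8 had higher values in fasted mice without tetracycline, with 1 called higher and a median change of 0.51, and 5 of 8 with it, with 0 called by DESeq2 and a median of 0.41. Of the stem cell markers 3 of 5 had higher values in both tables, with 0 called by DESeq2. Of the goblet and the enteroendocrine markers 3 of 5 each had lower values in fasted mice without tetracycline, with 1 of each list called lower, and 2 and 1 of 5 had lower values with it, with 0 called by DESeq2. All 3 endothelial markers had lower values in fasted mice in both tables, as did 6 of 6 pancreatic acinar markers without and 5 of 6 with tetracycline, with 0 of either list called by DESeq2. All 6 lymphocyte, all 5 myeloid and the 5 erythrocyte markers that were in the tables, of 6, had lower values in fasted mice in both tables, with 3, 1 and 4 called lower without and 0 with tetracycline. All 5 Paneth cell markers had higher values in fasted mice in both tables, with 3 called higher without tetracycline. Of the stromal markers 5 of 5 had lower values in fasted mice without tetracycline, with 3 called lower and a median change of -2.61, and 3 of 5 had lower values with it, with 0 called by DESeq2. All 5 cycling markers had lower and all 4 tuft cell markers higher values in fasted mice in both tables, with 0 called by DESeq2. Summed lymphocyte markers stood at 4825 to 9368 normalized counts fasted and 10891 to 13534 fed without tetracycline, and at 2631 to 15331 fasted and 12212 to 46022 fed with it. The summed myeloid markers stood at 996 to 1355 fasted and 1877 to 3124 fed without, and at 515 to 1723 fasted and 2270 to 5008 fed with tetracycline. Erythrocyte markers stood at 24431 to 34803 fasted and 87011 to 293131 fed without, and at 11667 to 72836 fasted and 87116 to 127581 fed with tetracycline. Summed stromal markers stood at 114 to 314 fasted and 430 to 1609 fed without, and at 202 to 466 fasted and 368 to 568 fed with tetracycline. No lymphocyte, myeloid, erythrocyte or stromal marker was at 0 in any library, 1 endothelial marker was at 0 in a library with tetracycline, and the part of all these lists in the change of Nqo1 and in the other members' values was not tested.

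Whether the fasting change differed between mice without and with tetracycline was tested per gene as the difference of both deposited changes over the root of their summed squared standard errors, a two-sided Wald test, adjusted over 17571 genes. It was called for 0 of the 10 genes, where 0.0228% of all genes were, and 0 of the 10 had an unadjusted p under 0.05, where 1.05% did. The change with tetracycline minus that without was 0.60 for Nqo1 (SE 0.45, 95% interval -0.29 to 1.48, unadjusted p = 0.186, the lowest of the 10, Wald adjusted p = 0.99997). A fall of Nqo1 of the same size in both tables and no change with tetracycline both lie within that interval. The difference was 0.68 for Gclc (SE 0.54, interval -0.38 to 1.74) and 0.54 for Gpx1 (SE 0.49, interval -0.42 to 1.49), and the lowest was -0.25 for Gpx2 (SE 0.57, interval -1.37 to 0.87). That of Gclc became 0.07 without fasted library 2 of the table with tetracycline. Those of Nqo1 and Gpx1 also changed in size with 1 library left out but stayed above 0. That of Gpx2 turned above 0 without fasted library 1 of the table without tetracycline, or without fasted library 2 of the other table. For Nfe2l2 the difference was 0.06 (SE 0.46, interval -0.83 to 0.96), and the interval holds differences of either sign larger than the changes themselves. In all, 7 differences were above 0 and 3 below it.

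Levels with tetracycline were set beside those without it from group means rebuilt from the deposited mean and fold change. The tables were scaled separately, so these log2 ratios were centred on the median of genes with a mean of at least 50 and not tested. In fed mice 9 of the 10 genes had lower values with tetracycline, as did 56.1% of 7503 genes with a mean of at least 1000. Gpx2 was lowest at -0.52, from 17197 to 12178 normalized counts, followed by Srxn1 at -0.39 and Gpx1 at -0.32, while 5% of the 7503 genes lay below -0.40. The other 7 lay between -0.18 for Nqo1 and 0.12 for Gclm, the 1 gene that was higher. Gclc, at -0.01, stood at 0.006 on the scaling as deposited and at 0.02 centred on genes with a mean of at least 500, so that 2 genes were higher there.

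In fasted mice 5 genes were higher and 5 lower with tetracycline, Gclm being lower at -0.06 as centred and higher at 0.02 as deposited. Gpx2 was again lowest, at -0.81, from 11097 to 6625 normalized counts, and 1.03% of the 7503 genes lay below it. Srxn1 followed at -0.62, with 2.09% below it, but its libraries overlapped widely between the tables, at 15788 and 6415 without and 4280 and 10918 with tetracycline. Gclc was highest, at 0.62, from 2769 to 4456, but of its libraries with tetracycline 1 was at 5993 and the other at 2920, level with 2618 and 2921 without. Nqo1 stood at 0.37, from 1664 to 2253, and here both libraries with tetracycline, 2231 and 2276, lay above both without, 1601 and 1728, as deposited. For Gpx2 both fed libraries with tetracycline, 10543 and 13815, lay below both without, 16204 and 18190, while its fasted libraries overlapped between the tables.

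Per kilobase of the longest annotated transcript, Gpx1 was the most abundant of the 10 in every group, at 29696 normalized counts per kilobase in fed mice without and 24089 with tetracycline, and at 19567 and 23068 in fasted mice. Its lowest library lay above the highest library of every other gene in each group. Txnrd1 and Nfe2l2 came next, at 6708 and 6491 per kilobase in fed mice without tetracycline, where their libraries overlapped. Gpx2, Srxn1 and Gsr followed at 5433, 4857 and 4166. Nqo1 stood at 2428, above Gclm at 1228, Keap1 at 1155 and Gclc at 970. In that group the libraries of Gpx2 and Srxn1 overlapped, as did those of Srxn1 and Gsr and those of Gclm and Keap1, while Nqo1 lay apart from its neighbours. In fasted mice without tetracycline Nqo1 stood at 1072 per kilobase, between Gclm at 1136 and Keap1 at 958, and its libraries overlapped those of both. With tetracycline the fed order was the same for the first 4 genes, and Gclc was again lowest, at 974. In fasted mice with tetracycline Keap1 was lowest, at 1036, with libraries that overlapped those of Gclm and Gclc. The order depends on the length used: with the median transcript Srxn1, whose median transcript is 446 bases against 2812 for the longest, comes first in fasted mice without tetracycline.

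The other genes of the system were read from 6 lists with 83 genes in all, of which 82 were tested in each table; some stand in more than 1 list. Without tetracycline 5 were called, 2 higher and 3 lower, and with tetracycline 1 was called higher. Over all tested genes 1.06% were called higher and 1.22% lower without tetracycline, and 0.333% higher and 0.267% lower with it. In the authors' deposited tables the median log2 change of the listed genes was -0.22 without the drug and -0.01 with it, against 0.01 and -0.02 for all tested genes. No list was tested as a whole.

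NRF2 control, 11 genes of the ligase, small MAF proteins and NRF2's competitors and relatives, had 0 of 11 called in either table (DESeq2 adjusted p), with medians of -0.02 and -0.03. Further NRF2 targets had 3 of 23 tested genes called lower and 1 called higher without tetracycline, and 1 of 23 called higher with it, with medians of -0.49 and -0.35. Gstm1, a glutathione S-transferase, stood at 9052 and 9654 normalized counts fasted and at 24259 and 44257 fed without tetracycline, with no overlap. It fell by 1.87 on the log2 scale in the authors' deposited table (SE 0.32, DESeq2 adjusted p = 2.25e-06). With tetracycline Gstm1 stood at 6485 and 18501 fasted and at 20838 and 16942 fed, and the authors' deposited table gave -0.60 (SE 0.57), which was not called.

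Gsta4, a transferase that conjugates lipid aldehydes, stood at 4411 and 6136 normalized counts fasted and at 9609 and 20870 fed without tetracycline, and fell by 1.53 in the authors' deposited table (SE 0.37, DESeq2 adjusted p = 0.00366). Without fed library 2 the value was -0.87. With tetracycline its value was -0.65 (SE 0.71), and fasted library 1 stood at 3276 against 17560 in fasted library 2. Cbr3, a carbonyl reductase, stood at 252 and 286 fasted and at 445 and 1279 fed, and fell by 1.68 in the authors' deposited table without tetracycline (SE 0.44, DESeq2 adjusted p = 0.0111). Without fed library 2 it was -0.72, so that the size of both falls rests largely on that library. The same library also had the higher fed sums of erythrocyte and stromal markers, 293131 and 1609 normalized counts against 87011 and 430 in fed library 1. Its enterocyte and pancreatic acinar sums were higher too, at 173397 and 1484 against 129035 and 485. Its stem cell and cycling sums were lower, at 65350 and 27634 against 101457 and 43567. The part of these cell types in the falls of Gsta4 and Cbr3 was not tested. The value of Cbr3 with tetracycline was -0.11 (SE 0.42). Akr1b8, an aldo-keto reductase, went the other way and was called in both tables: it rose by 1.21 (SE 0.33, DESeq2 adjusted p = 0.0174) without the drug and by 1.50 (SE 0.41, adjusted p = 0.0463) with it in the authors' deposited tables. Its fasted libraries stood at 1066 and 1643 against 479 and 689 fed without tetracycline, and at 1368 and 1132 against 371 and 512 with it.

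Other genes of this list, named whatever their values, were not called. Hmox1, heme oxygenase, had 0.90 (SE 0.49) without the drug and -0.46 (SE 0.69) with it in the authors' deposited tables, at means of 91.7 and 57.8 normalized counts. Txn1, thioredoxin, had -0.36 and -0.37, and Prdx1, a peroxiredoxin, -0.58 (SE 0.26, adjusted p = 0.344) and -0.39 (SE 0.37) in the authors' deposited tables. Slc7a11, the cystine carrier that feeds glutathione synthesis, had 1.33 (SE 0.85) and 0.32 (SE 0.68) in the authors' deposited tables, at means of 32.3 and 39.2.

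Glutathione synthesis and turnover had 1 of 13 genes called higher without and 0 of 13 with tetracycline, with medians of -0.05 and 0.19. The called gene was Chac1, which degrades glutathione in the cytosol and is known as a target of the amino acid stress response. It stood at 242 and 137 normalized counts fasted and at 14.9 and 15.1 fed without tetracycline, and rose by 3.66 in the authors' deposited table (SE 0.53, DESeq2 adjusted p = 4.13e-09). Under tetracycline it stood at 29.6 and 4.13 fasted and at 34.6 and 41.0 fed, with a value of -1.13 (SE 1.04). The difference of these changes was -4.79 (SE 1.17, unadjusted p = 4.1e-05, adjusted p = 0.103 by the Wald test over all genes), which was not called. Gss, glutathione synthetase, had -0.60 (SE 0.26, adjusted p = 0.297) and -0.21 (SE 0.37) in the authors' deposited tables, and its 2 fasted libraries, 5268 and 5001, lay below the fed ones, 7023 and 8492, without tetracycline.

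NADPH supply had 0 of 8 genes called in either table by DESeq2, with medians of -0.27 and -0.12. Peroxide and superoxide removal had 0 of 24 called in either, with medians of -0.34 and 0.09. Without tetracycline 19 of its 24 values lay below 0, where 8953 of all 18100 tested genes did. With tetracycline 11 of its 24 did, where 9316 of all 17993 tested genes did. In that list Gpx4, the peroxidase of membrane lipids, had -0.48 (SE 0.36) and 0.16 (SE 0.54) in the authors' deposited tables. Cat, catalase, had 0.53 (SE 0.29) and 0.29 (SE 0.46), Sod1 0.09 (SE 0.30) and 0.68 (SE 0.40), and Sod2 -0.06 (SE 0.24) and -0.07 (SE 0.37) in the authors' deposited tables. Selenoprotein synthesis had 0 of 9 called in either table, with medians of -0.12 and 0.21.

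**Figure D4:**
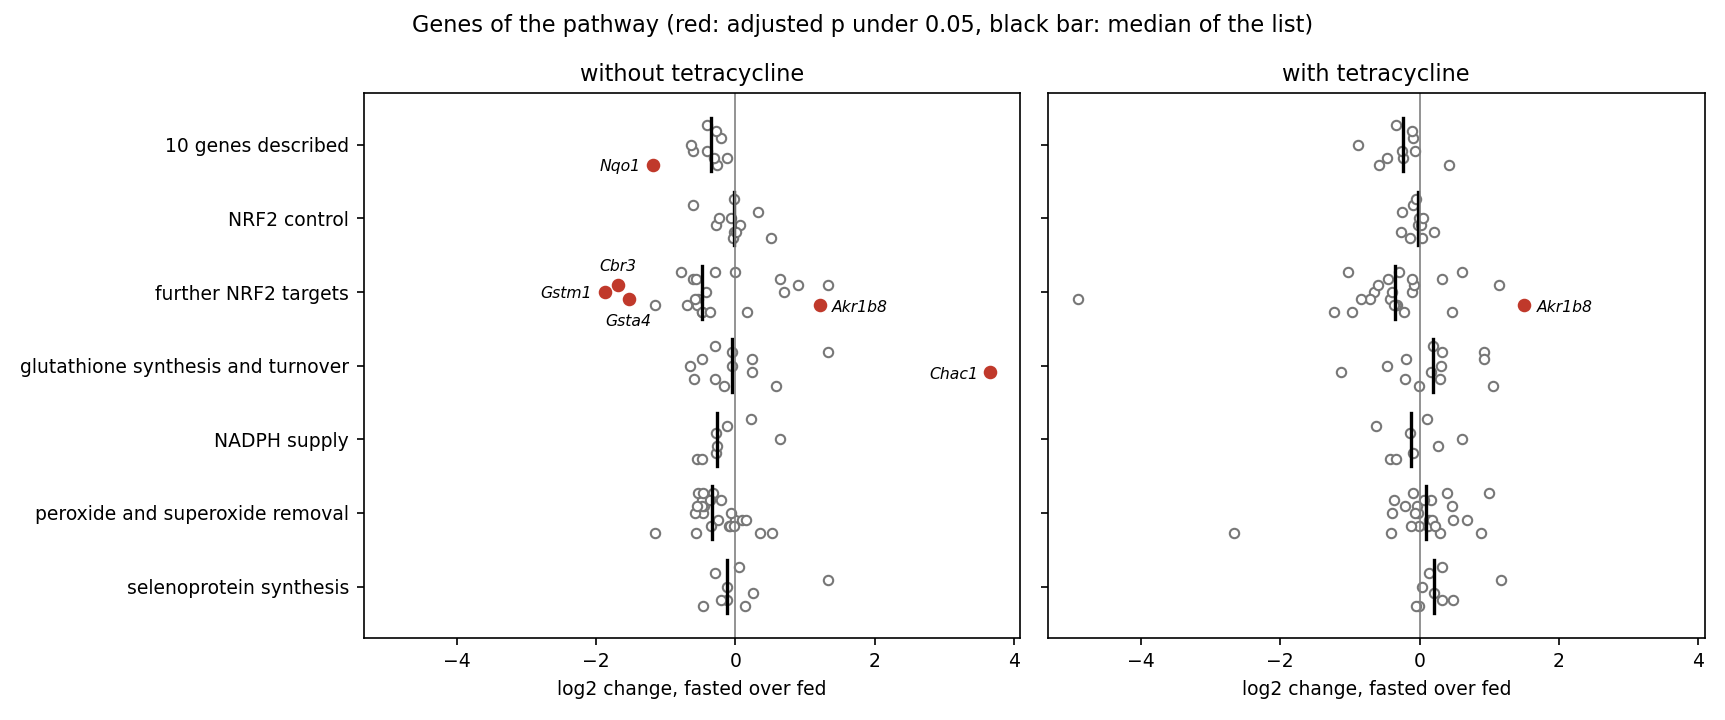
Fasting change (log2, fasted over fed, horizontal axis) of the 10 genes and of the genes of 6 further lists in the authors' deposited tables, without and with tetracycline, with called genes in red and list medians as black bars. Without tetracycline Nqo1, Gstm1, Gsta4 and Cbr3 lie at -1.18 to -1.87 and Akr1b8 and Chac1 at 1.21 and 3.66, and with tetracycline Akr1b8 at 1.50 is the only red point.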

How the data were processed

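RNA from small-intestinal crypts was sequenced in 4 labelled samples, 1 in each of 4 groups. Per the submitters' processing notes, Salmon, DESeq2 and the mm10 genome were used, with no versions. Per the file headers, the deposited tables hold a mean, which is a signal (counts divided by size factors, averaged over the table's libraries), a log2 fold change with its standard error, a test score and p-values. In the deposited values the score equalled the log2 change over its standard error, and the authors' adjusted p-values equalled a Benjamini-Hochberg adjustment of the deposited p-values. Added up, the deposited means came to 65863261 normalized counts without and 65327199 with tetracycline. Of columns with values per sample, 0 were left unused.

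Whole counts per library were worked out from the deposited means, since each count adds a fixed step to a mean, a step that differs between libraries, and up to 64 sets of counts shared a member's mean. The set was kept whose refitted fold change matched the deposited one at least 20 times more closely than the next, and all 20 member values gave 1 set. Of genes with a mean of 50 to 30000, 99.8% and 99.2% gave 1 set without and with tetracycline. On simulated means for 200 genes in each comparison, 100% of the counts came out right. The simulation used the same steps, fit and reference level as the decoding, so it cannot check those. The design assumed that the tables might hold values per library; as they hold comparisons, the test that the authors deposited was used, count models were fitted only to pick the counts and to read the reference level, never to test, and single libraries carry no standard deviation or test. Rebuilt group means come from the deposited mean and fold change. Lists were limited to genes with a mean of at least 1, and tetracycline levels used a pseudocount of 1.

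The 10 members and all lists were chosen with earlier results of these data known. Named are the 10 members, the genes of each list called in either table (at most 6 per list) and 9 further genes fixed by name whatever their values; the aryl hydrocarbon receptor genes were added for Nqo1. Gene positions and lengths come from GENCODE mouse release 21 (GRCm38), which held 99.3% and 99.2% of the tables' identifiers without the version. Python 3.11.15, numpy 2.4.6, pandas 2.3.3, scipy 1.17.1 and matplotlib 3.10.9 were used. Alternatives were other thresholds, filters, scalings, pseudocounts and transcript lengths, and leaving out each library, the last not done for the tetracycline levels.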

Additional observations from a re-analysis of the deposited data

How the results depend on the processing

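Of 62 alternatives to the summary values, 59 left a count as it was, moved the highest over lowest level per kilobase from 30.6 to 25.5, or moved a median by less than the members' median standard error, and 3 moved a count further. Members called without tetracycline were 2 at an unadjusted p under 0.05 against 1. Listed pathway genes called at an adjusted p under 0.01 were 3 without tetracycline against 5, and 0 with it against 1. Nqo1 stayed called without tetracycline at each adjusted threshold, filter and adjustment tried, and 0 members were called with tetracycline or for the difference. For single members 234 of 250 values of the fasting change or its difference moved by less than their standard error or, where centred, kept their call. The other 16 came from leaving out 1 fasted library and concerned Gclc, Gclm, Txnrd1, Srxn1, Gpx1 and Gpx2. The 80 values of the tetracycline level, which have no standard error of their own, moved by at most 0.07 on the log2 scale. No library was left out for them, so these moves do not show how far a level rests on 1 library. Leaving out each library for the 5 called listed genes was chosen after seeing the data: it turned no sign, and moved by over 1.5 times only Cbr3 and Gsta4, to -0.72 and -0.87 without fed library 2. The signs of 3 untested medians turned. With 1 library left out, the members' median change ran from -0.45 to -0.27 without tetracycline and from -0.54 to 0.03 with it, the last without fasted library 1, against -0.35 and -0.24 over all libraries. The median tetracycline level in fasted mice was -0.01 as centred and 0.06 as deposited. The sign changed with 1 library left out for Gclm and Srxn1 without tetracycline and for Keap1, Gclc, Gclm, Gsr, Txnrd1, Srxn1 and Gpx1 with it, none of them called. The median difference, 0.13 over all libraries, ran from -0.02 without fasted library 2 of the table with tetracycline to 0.35. Only 2 libraries per side limit the precision. No paired analysis was possible because the tables hold comparisons and their libraries carry no replicate numbers.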
